A study of Homo sapiens with 6 samples.

Results

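The genes described are TGF-beta ligands, receptors, signal carriers and response genes in PC3, an established cell line from a human prostate cancer. They were chosen by name: TGFB1 and TGFB2 among the ligands, TGFBR1 and TGFBR2 among the receptors, SMAD3 as signal carrier, and SMAD7, SKIL, PMEPA1 and TGFBI among genes that the pathway induces. Of these 9 genes, 8 are in the deposited table of 12227 genes, and SMAD7 was not analysed here. RNA sequencing was done on 3 libraries from PC3 cells carrying short hairpin RNA (shRNA) against VprBP, labelled as VprBP knockdown, and on 3 libraries from PC3 cells carrying control shRNA, labelled as WT. VprBP, the protein of the gene DCAF1, brings substrates to a CRL4 ubiquitin ligase and has also been described as a histone kinase. Both groups were grown in DMEM with fetal bovine serum, and the labels name no added TGF-beta. The comparison shows which of these transcripts differ between cells with VprBP shRNA and cells with control shRNA. Effects of VprBP loss and other effects of the hairpins cannot be told apart in this design. Titles carry the numbers sh1 to sh3, and the labels do not state whether these stand for different hairpins, cultures or libraries. The p-values therefore measure the spread between these libraries alone, and that spread may be technical.

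TGF-beta ligands are secreted in a latent form and, once released, bind the type II receptor TGFBR2, which then activates the type I receptor TGFBR1. The active receptor complex phosphorylates SMAD2 and SMAD3, which join SMAD4, enter the nucleus and switch target genes on or off. Several targets, SMAD7, SKIL and PMEPA1 among them, encode proteins that dampen the pathway. In carcinoma cells TGF-beta is known both for restraining growth and for inducing mesenchymal and matrix genes.

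The bases just before the start of 5 of these genes are printed here because the text below describes ligands, a repressor and response genes that differ between the groups. RefSeq (GRCh38.p14) has a promoter entry for all 9 genes. Where a gene has several starts, the one nearest the 5′ end in the deposited table was taken, and the 250 bases before it were searched on both strands for 3 motifs: CAGAC, the short SMAD binding element; GTCTAGAC, its palindromic form; and TGANTCA, an AP-1 element. Capitals mark matches to CAGAC, which read GTCTG where the match lies on the other strand, and no match overlapped another.
TGFB2 promoter, chr1:218345086-218345335, plus strand: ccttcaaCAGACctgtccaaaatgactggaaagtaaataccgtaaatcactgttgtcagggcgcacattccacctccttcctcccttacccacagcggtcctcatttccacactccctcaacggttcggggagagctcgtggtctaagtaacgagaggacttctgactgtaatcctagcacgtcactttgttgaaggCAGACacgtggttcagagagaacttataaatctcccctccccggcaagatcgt
TGFB1 promoter, chr19:41353923-41354172, minus strand: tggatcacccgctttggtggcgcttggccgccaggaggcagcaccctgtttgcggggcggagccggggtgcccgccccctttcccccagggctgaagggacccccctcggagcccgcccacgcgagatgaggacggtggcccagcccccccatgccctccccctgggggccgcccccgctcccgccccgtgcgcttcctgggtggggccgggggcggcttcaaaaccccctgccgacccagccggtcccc
SKIL promoter, chr3:170357465-170357714, plus strand: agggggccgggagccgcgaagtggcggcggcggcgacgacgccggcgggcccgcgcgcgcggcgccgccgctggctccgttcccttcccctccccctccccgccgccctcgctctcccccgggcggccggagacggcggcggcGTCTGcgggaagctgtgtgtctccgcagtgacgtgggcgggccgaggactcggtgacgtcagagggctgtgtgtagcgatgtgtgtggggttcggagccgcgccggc
PMEPA1 promoter, chr20:57711473-57711722, minus strand: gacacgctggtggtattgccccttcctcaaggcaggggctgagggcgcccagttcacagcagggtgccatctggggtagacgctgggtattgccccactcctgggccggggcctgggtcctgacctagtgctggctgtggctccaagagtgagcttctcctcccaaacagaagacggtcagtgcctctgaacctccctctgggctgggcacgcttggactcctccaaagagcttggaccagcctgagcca
TGFBI promoter, chr5:136028738-136028987, plus strand: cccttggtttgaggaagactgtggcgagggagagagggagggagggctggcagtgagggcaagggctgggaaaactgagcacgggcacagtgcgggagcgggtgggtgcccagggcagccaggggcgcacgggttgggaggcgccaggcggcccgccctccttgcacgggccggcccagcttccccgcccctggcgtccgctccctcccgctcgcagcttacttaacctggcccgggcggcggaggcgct

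TGFB2 has 2 CAGAC matches, beginning 243 and 53 bases before its start, and SKIL has 1, beginning 107 bases before its start. The printed windows of TGFB1, PMEPA1 and TGFBI hold no match. PMEPA1 has 4 starts in RefSeq, and the one used lies 64 bases from the 5′ end in the table. The windows of 2 of its other starts hold CAGAC once each, beginning at positions -115 and -71 from the start, so the result for PMEPA1 depends on the start taken. Over the 8 listed genes, 3 windows held CAGAC (TGFB2, SKIL and TGFBR1), and none held GTCTAGAC or TGANTCA. SMAD3 has 5 starts in RefSeq, and the one used lies 1839 bases from the 5′ end in the table. Its start at 67166531 has 3 CAGAC matches, that at 67138021 has 1, and that at 67125742 has 1 TGANTCA match. The result for SMAD3 thus also depends on the start taken, as does that for TGFBR1, whose 8 starts include windows without CAGAC. Of 35116 promoter windows of the same length, 38.0% held CAGAC, 0.182% GTCTAGAC and 6.57% TGANTCA. A match is a description of letters, not a site.

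Values are the deposited scaled signal, in which 1 read is worth 0.0254 to 0.0439 depending on the library. Estimated depth was 23029325 to 39634109 reads in VprBP sh libraries and 22981864 to 32293194 reads in control sh libraries, summed over listed genes. DCAF1 was 39.9 ± 1.36 in VprBP sh cells and 78.8 ± 0.465 in control sh cells (SD, n = 3 each), so 50.6% of the control level was measured. VprBP sh replicate 3 stood somewhat apart: chi-square over degrees of freedom was 6.26 and 6.69 when its estimated reads were set against the other libraries of its group, and 3.39 to 3.85 for the other pairs within groups. The epithelial markers KRT8, KRT18, EPCAM and CDH1 were all present (summed value 1877 to 1947 in VprBP sh and 1419 to 1439 in control sh libraries), and KLK3, which PC3 is known to lack, was not listed. Of the markers of other cell types, 1 of 7 for fibroblasts (COL1A1), 1 of 4 for leukocytes (CD68) and 1 of 3 for endothelium (PECAM1) were listed. COL1A1 ran from 20.6 to 28.7 in VprBP sh and from 23.6 to 25.4 in control sh libraries, and CD68 from 25.6 to 26.9 in VprBP sh and from 25.6 to 26.8 in control sh libraries. PECAM1 was 23.3 ± 0.695 in VprBP sh cells and 54.2 ± 1.14 in control sh cells (SD, n = 3 each), and its part in the results was not tested. Fewer expressing cells and less RNA per cell cannot be told apart in these bulk samples.

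The response genes TGFBI and PMEPA1 differed most, both higher in VprBP sh cells, and the ligand gene TGFB2 came next. SKIL and both receptor genes were moderately higher, and the ligand gene TGFB1 and the signal carrier gene SMAD3 were moderately lower. Each of these 8 differences passed the test across all genes (limma on log2(value + 0.5), Benjamini-Hochberg adjusted p under 0.05), in a comparison in which 60.9% of all listed genes passed and the groups did not overlap for 64.8%. The groups did not overlap for any of the 8 genes. Only genes that reached 150 estimated reads in at least 1 library are listed, and TGFBI reached this in VprBP sh libraries alone, so its place in the table rests on the group where it is high. Of the other 7 genes, which reached the minimum in both groups, 5 were higher and 2 lower, where 32.6% and 28.0% of all such genes were higher and lower.

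**Figure D1:**
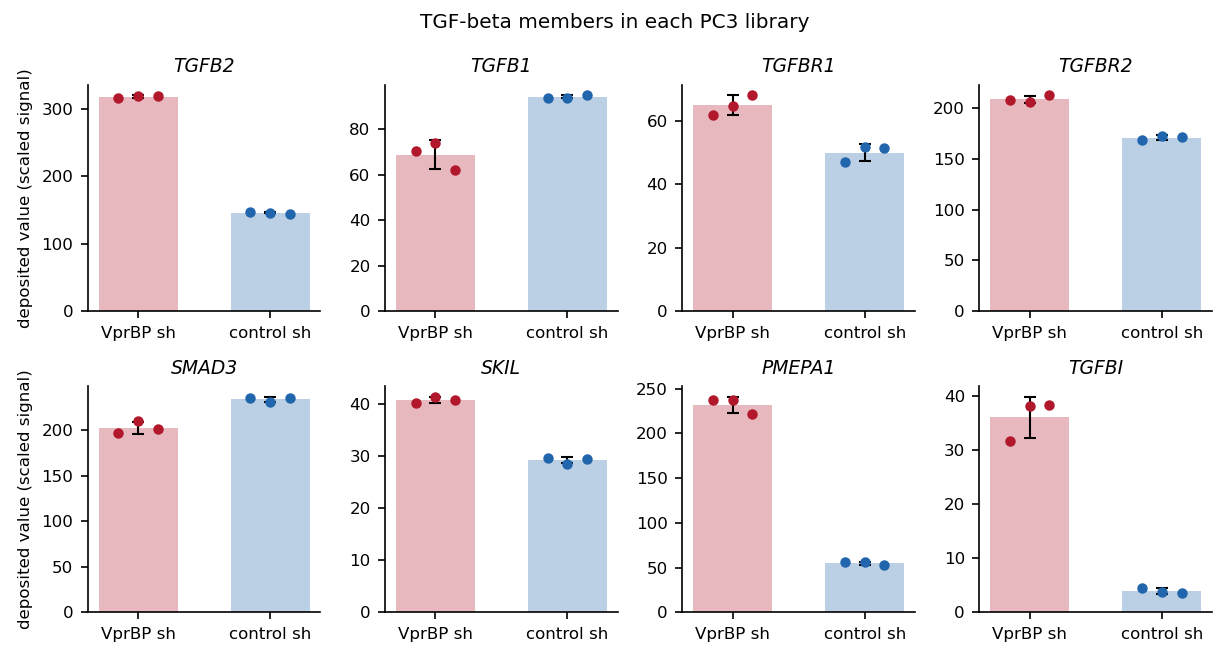
Deposited value (scaled signal, linear axis from 0) of the 8 listed genes in each library, VprBP sh (red) and control sh (blue). Points are libraries, bars are means and error bars are SDs (n = 3 each). The groups do not overlap in any panel, and TGFBI shows the widest gap as a fold, with means of 36.1 in VprBP sh cells and 3.99 in control sh cells.

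The ligand genes moved in opposite directions. TGFB2, which encodes an isoform with important roles in development, had 317, 320 and 320 in VprBP sh libraries 1 to 3, against 147, 146 and 145 in control sh libraries 1 to 3. The coefficient of variation was 0.591% in VprBP sh and 0.746% in control sh cells, and all 3 VprBP sh libraries were far above all controls. The difference was 2.18-fold, with a log2 fold change of 1.12 (SE 0.03, limma adjusted p = 4.57e-14). TGFB1, which encodes the isoform most widely expressed in adult tissues, had 70.5, 74.1 and 61.9 in VprBP sh libraries, against 94.0, 93.8 and 94.99 in control sh libraries. VprBP sh replicate 3 was the lowest, and all 3 VprBP sh libraries were below all controls. TGFB1 was thereby at 73.1% of its control level (log2 fold change -0.45, SE 0.06, limma adjusted p = 2.96e-06), and without VprBP sh replicate 3 its log2 fold change was -0.38.

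Both receptor genes were somewhat higher. TGFBR2, the type II receptor gene that binds the ligand first, had 208, 206 and 213 in VprBP sh libraries, against 168, 173 and 172 in control sh libraries. The gap between the groups was 33.6, wider than the spread within either. TGFBR2 rose 1.22-fold (log2 fold change 0.29, SE 0.03, limma adjusted p = 2.02e-06). TGFBR1, the type I receptor gene, had 61.8, 64.8 and 68.1 in VprBP sh libraries, against 46.9, 51.7 and 51.4 in control sh libraries. VprBP sh replicate 3 was the highest and control sh replicate 1 the lowest. TGFBR1 rose 1.30-fold (log2 fold change 0.37, SE 0.05, limma adjusted p = 1.71e-05).

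SMAD3, which encodes the receptor-activated transcription factor, was the least changed. It had 198, 210 and 201 in VprBP sh libraries, against 235, 231 and 236 in control sh libraries, and each VprBP sh library was below each control. SMAD3 fell to 86.7% of its control level (log2 fold change -0.21, SE 0.04, limma adjusted p = 9.82e-05). An absolute log2 fold change at least as large as that of SMAD3 was found for 50.8% of listed genes.

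Among genes that the pathway induces, SKIL encodes SnoN, a co-repressor that binds SMADs. SKIL had 40.3, 41.5 and 40.8 in VprBP sh libraries, against 29.7, 28.6 and 29.5 in control sh libraries. The libraries of each group were close together, and SKIL rose 1.40-fold (log2 fold change 0.48, SE 0.05, limma adjusted p = 1.27e-06). PMEPA1 encodes a membrane adapter that binds SMADs and NEDD4-type ubiquitin ligases and limits TGF-beta signalling, and it was first described in prostate as an androgen-induced gene. PMEPA1 had 237, 237 and 221 in VprBP sh libraries, against 55.9, 56.4 and 53.2 in control sh libraries. The lowest VprBP sh library was 164.8 above the highest control, and the means differed 4.20-fold (log2 fold change 2.06, SE 0.04, limma adjusted p = 5.34e-16).

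TGFBI encodes an extracellular matrix protein that binds integrins and collagens. It had 31.7, 38.2 and 38.3 in VprBP sh libraries, against 4.58, 3.71 and 3.67 in control sh libraries. VprBP sh replicate 1 was the lowest of its group and control sh replicate 1 the highest of its own. These values rest on 1246, 1193 and 872 estimated reads in VprBP sh libraries and on 149, 86 and 88 estimated reads in control sh libraries, and the coefficient of variation in control sh cells, 12.9%, was the largest of the 8 genes there. The difference was 9.05-fold, and the log2 fold change, which the added 0.5 makes smaller for genes of low value, was 3.03 (SE 0.10, limma adjusted p = 4.90e-13).

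Set against all 12227 listed genes, TGFBI ranked 14th and PMEPA1 51st from the highest log2 fold change, and TGFB2 ranked 178th. These 3 were the members called at least 2-fold higher, a group that held 1.85% of all listed genes. TGFBI is listed through its VprBP sh libraries alone, so its rank and its place in this count rest on the group where it is high. SKIL, TGFB1, TGFBR1 and TGFBR2 were not extreme. Absolute log2 fold changes at least as large were found for 17.2%, 18.8%, 25.7% and 36.4% of listed genes in that order. The 95% intervals of the log2 fold change ran from 2.81 to 3.25 for TGFBI, from 1.97 to 2.15 for PMEPA1 and from 1.05 to 1.19 for TGFB2, so these 3 did not overlap one another. Those of TGFBR1, from 0.26 to 0.49, and TGFBR2, from 0.22 to 0.36, overlapped.

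**Figure D2:**
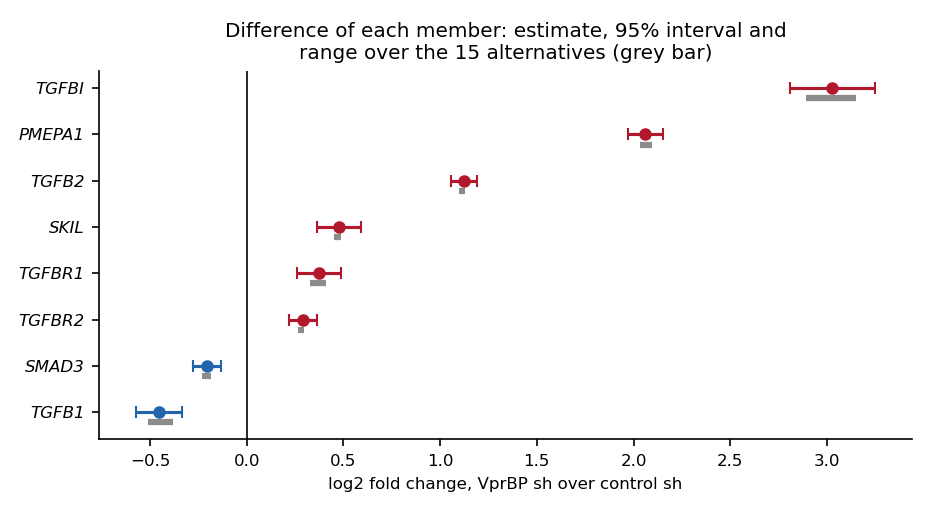
Log2 fold change of VprBP sh over control sh for each of the 8 genes (points, red where higher and blue where lower in VprBP sh cells), with the 95% interval from limma (bars) and the range over 15 alternative analyses (grey). TGFBI stands at 3.03 and TGFB1 at -0.45, and no interval or range crosses 0.

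Without VprBP sh replicate 3, the library that stood apart, the log2 fold changes were 2.98 for TGFBI, 2.09 for PMEPA1, 1.12 for TGFB2, 0.48 for SKIL, 0.34 for TGFBR1, 0.28 for TGFBR2 and -0.20 for SMAD3. Each stayed called (limma adjusted p at most 6.35e-05 in that fit). The exact permutation test over the 20 assignments of the 6 libraries gave p = 0.1 for each gene, two-sided, and no smaller p can arise from 6 libraries in groups of 3.

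Plain ratios of 2 genes within a library do not depend on the scaling between libraries. The log2 differences were taken with 0.5 added to each value, so they can depend on it where values are low. The ratio of TGFB2 to TGFB1 values was 4.49, 4.32 and 5.16 in VprBP sh libraries and 1.56, 1.56 and 1.53 in control sh libraries, a log2 difference of 1.58. The ratio of PMEPA1 to TGFBI values was 7.48, 6.19 and 5.77 in VprBP sh libraries and 12.2, 15.2 and 14.5 in control sh libraries. Its log2 difference was -0.97 with 0.5 added to each value and -1.11 without. For both ratios the groups did not overlap (exact permutation p = 0.1, adjusted over 3 pairs 0.15, two-sided). The ratio of TGFBR1 to TGFBR2 was 0.298, 0.314 and 0.320 in VprBP sh libraries and 0.279, 0.299 and 0.299 in control sh libraries, and the groups overlapped. Its log2 difference of 0.09 lay near the SDs within groups, 0.05 in VprBP sh and 0.06 in control sh cells (exact permutation p = 0.3, adjusted 0.3).

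**Figure D3:**
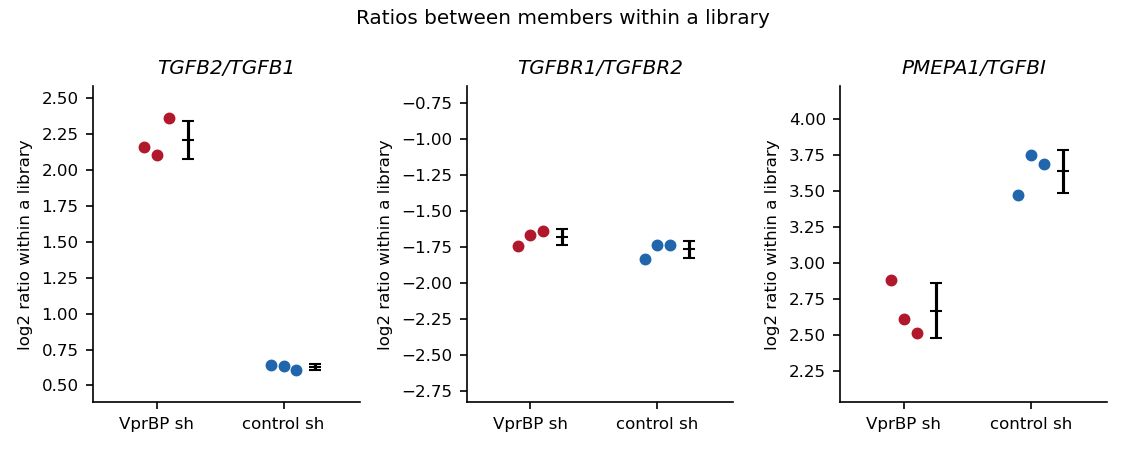
Log2 ratio of 2 genes within each library, for VprBP sh (red) and control sh (blue), with mean and SD beside the points (n = 3 each). Each value had 0.5 added before the ratio was taken. All 3 panels span the same number of log2 units. TGFB2/TGFB1 is higher by 1.58 and PMEPA1/TGFBI lower by 0.97 in VprBP sh cells, and TGFBR1/TGFBR2 overlaps between the groups.

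Levels of different genes were compared as deposited value per kilobase of the principal GENCODE 29 transcript. In VprBP sh cells TGFB2 was highest at 64.2 ± 0.379 per kilobase, ahead of PMEPA1 at 47.8 ± 1.88 and TGFBR2 at 45.2 ± 0.723 (SD, n = 3 each), and the libraries of PMEPA1 and TGFBR2 overlapped. SMAD3 at 32.5 ± 1.03, TGFB1 at 24.9 ± 2.27, TGFBI at 12.9 ± 1.36, TGFBR1 at 9.97 ± 0.482 and SKIL at 5.69 ± 0.0815 per kilobase followed in VprBP sh cells (SD, n = 3 each). In control sh cells the order began with SMAD3 at 37.5 ± 0.459 and TGFBR2 at 37.0 ± 0.527 per kilobase (SD, n = 3 each), whose libraries overlapped. TGFB1 at 34.0 ± 0.232 stood above TGFB2 at 29.4 ± 0.219, followed by PMEPA1 at 11.4 ± 0.346, TGFBR1 at 7.67 ± 0.413, SKIL at 4.07 ± 0.0822 and TGFBI at 1.42 ± 0.183 per kilobase (SD, n = 3 each). Values not divided by length had TGFB2 above TGFB1 in control sh cells too, at 146 against 94.3. Per kilobase, the order of the ligands was reversed between the groups. TGFB2 was above TGFB1 in VprBP sh cells and below it in control sh cells. With the merged length of all exons, TGFB2 was likewise above TGFB1 in VprBP sh cells, at 61.9 against 21.3 per kilobase, and below it in control sh cells, at 28.4 against 29.1. TGFBI, whose merged exons are longer by far, then stood below SKIL in VprBP sh cells, at 4.62 against 5.25 per kilobase, and SMAD3 stood below both ligand genes in control sh cells, at 25.7 per kilobase.

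Whether reads were counted by strand is not stated, so how much signal overlapping genes on opposite strands share cannot be told. PMEPA1 (hg38, chromosome 20, 57648392 to 57711536, minus strand) overlaps the antisense RNA gene NKILA, which had 8.64 ± 0.854 in VprBP sh cells and 4.31 ± 0.305 in control sh cells (SD, n = 3 each; limma adjusted p = 6.67e-06). These values are small beside those of PMEPA1. TGFB1 (chromosome 19, 41301587 to 41353922, minus strand) overlaps HNRNPUL1 and CCDC97 on the plus strand, and HNRNPUL1 had 298 ± 8.88 in VprBP sh cells and 292 ± 4.73 in control sh cells (SD, n = 3 each; limma adjusted p = 0.442). CCDC97 was higher in VprBP sh cells, at 27.0 ± 0.761, than in control sh cells, at 23.0 ± 1.12 (SD, n = 3 each; limma adjusted p = 0.00623). A lncRNA gene on the same strand, ENSG00000286177, also overlaps TGFB1, with 2.40 ± 0.505 in VprBP sh cells and 5.09 ± 0.0220 in control sh cells (SD, n = 3 each; limma adjusted p = 8.58e-05). TGFB2 lies on chromosome 1 from 218345336 to 218444619, TGFBI on chromosome 5 from 136028988 to 136063818 and SKIL on chromosome 3 from 170357342 to 170396835. TGFBR1 lies on chromosome 9 from 99104038 to 99154192, TGFBR2 on chromosome 3 from 30606478 to 30694249 and SMAD3 on chromosome 15 from 67063763 to 67195173, and these 6 overlap no other listed gene.

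Among ligand genes and genes of latency and activation, more fell than rose. Of 24 genes on this list, which holds TGFB1 and TGFB2 themselves, 18 were listed, of which 4 rose, 11 fell and 3 passed in neither direction. Their median log2 fold change was -0.26, against 0.02 over all listed genes. The background shares were 33.0% higher and 27.8% lower. THBS1, which encodes thrombospondin 1, a matrix protein that can release latent TGF-beta, rose 4.16-fold, with 2587 ± 41.8 in VprBP sh cells and 622 ± 19.3 in control sh cells (SD, n = 3 each). INHBA, which encodes the activin A subunit, rose 1.35-fold. ITGAV, an integrin subunit gene, rose 1.09-fold, but its groups overlapped and its call was lost without VprBP sh replicate 2 or 3 or control sh replicate 1 or 3 (limma adjusted p between 0.0784 and 0.154), and likewise under both other scalings (0.0945 and 0.106). The count of higher genes on this list was also 3, not 4, with a replicate block and with a single prior variance. FST, which encodes the activin antagonist follistatin, fell to 275 ± 9.37 in VprBP sh cells, against 450 ± 12.1 in control sh cells (SD, n = 3 each). LTBP3, a latent TGF-beta binding protein gene, fell to 109 ± 8.34 in VprBP sh cells, against 177 ± 8.32 in control sh cells (SD, n = 3 each). GDF15, a stress-induced ligand gene, was 1.63-fold lower. TGFB3, the third TGF-beta gene, fell as TGFB1 did, with 9.45 ± 0.782 in VprBP sh cells and 14.2 ± 0.404 in control sh cells (SD, n = 3 each; limma adjusted p = 5.17e-05).

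Of 12 receptor and co-receptor genes, 7 were listed, and TGFBR1 and TGFBR2 rose while the other 5 fell (median log2 fold change -0.31). These are shares of 28.6% higher and 71.4% lower, against 33.0% and 27.8% of all listed genes. ACVR2B, an activin type II receptor gene, fell to 10.1 ± 0.671 in VprBP sh cells, against 19.6 ± 1.31 in control sh cells (SD, n = 3 each). BAMBI, a pseudoreceptor gene that lacks a kinase domain and blocks signalling, was 1.49-fold lower. TGFBR3, the betaglycan co-receptor gene that presents TGF-beta 2 to the type II receptor, was 1.38-fold lower from a low level, and ACVR1B, the activin type I receptor gene, was 1.24-fold lower.

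Of 14 SMADs and signal partners, 12 were listed, of which 2 rose, 6 fell and 4 passed in neither direction (median log2 change -0.12). The shares were 16.7% higher and 50% lower, against 33.0% and 27.8% of all listed genes. FKBP1A, which encodes the type I receptor binding protein FKBP12, rose 1.17-fold. ZFYVE9, which encodes the SMAD anchor SARA, rose 1.14-fold, and its call was lost without VprBP sh replicate 1 or control sh replicate 2 (limma adjusted p = 0.0606 and 0.0816), which left 1 of the 2 higher calls. DAB2, an endocytic adapter gene, was 1.46-fold lower, EP300, a histone acetyltransferase and SMAD co-activator gene, was 1.26-fold lower, and MAP3K7, which encodes the kinase TAK1, was 1.17-fold lower. SMAD2 and SMAD4 had log2 fold changes of 0.08 and -0.08 and were not called.

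Negative regulators went both ways. Of 21 genes, 20 were listed, of which 6 rose, 9 fell and 5 passed in neither direction (median log2 change 0.00). The shares were 30% higher and 45% lower, against 33.0% and 27.8% of all listed genes. With a single prior variance 4 were higher, and without VprBP sh replicate 2 or control sh replicate 2 the lower count was 7. Next to PMEPA1 and SKIL, the phosphatase regulator gene PPP1R15A rose 1.49-fold and the ubiquitin ligase gene SMURF2 rose 1.12-fold. SKI, the relative of SKIL, went the other way, with 138 ± 12.2 in VprBP sh cells and 190 ± 2.58 in control sh cells (SD, n = 3 each; limma adjusted p = 7.05e-07). NEDD4L, a ubiquitin ligase gene, and the phosphatase gene CTDSP2 were 1.38-fold and 1.27-fold lower.

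Genes that TGF-beta is known to raise were more often higher than lower. Of 54 such genes, 47 were listed, of which 28 (59.6%) rose, 8 (17.0%) fell and 11 passed in neither direction (median log2 change 0.48). Of these 47, 8 reached the listing minimum in VprBP sh libraries alone and 1 in control sh libraries alone. Among the 38 that reached it in both groups, 20 (52.6%) rose and 7 (18.4%) fell, against 32.6% and 28.0% of all such genes, and their median log2 fold change was 0.29 against 0.02 over all such genes. The list holds TGFBI, PMEPA1 and SKIL themselves and was chosen with earlier results of these data known, so its direction is a description.

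MMP9, a matrix protease gene, had 5.34, 4.26 and 5.36 in VprBP sh libraries, against 0.215, 0.173 and 0.0834 in control sh libraries, where it rests on 7, 4 and 2 estimated reads. The groups were well apart, but MMP9 was scarce and listed only through its VprBP sh libraries. Its log2 fold change was 3.06 (limma adjusted p = 6.75e-09).

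Genes on the same list that fell include the CDK inhibitor genes CDKN2B and CDKN1C. CDKN2B, which encodes p15, had 20.2, 19.1 and 17.9 in VprBP sh libraries, against 49.1, 46.5 and 52.1 in control sh libraries. CDKN1C, which encodes p57, had 2.98 ± 0.560 in VprBP sh cells and 5.86 ± 0.996 in control sh cells (SD, n = 3 each), from 142, 79 and 64 estimated reads in VprBP sh libraries and 164, 129 and 167 in control sh libraries. It is thus scarce and listed only through its control sh libraries. The transcription factor gene SNAI1 was 1.59-fold lower and the small GTPase gene RHOB 1.36-fold lower. CDKN2B fell by 1.35 on the log2 scale (limma adjusted p = 3.56e-11). Another CDK inhibitor gene on the list, CDKN1A, which encodes p21 and is named here after its values were seen, rose 3.21-fold, with 39.7 ± 1.21 in VprBP sh cells and 12.4 ± 0.338 in control sh cells (SD, n = 3 each; limma adjusted p = 3.42e-12).

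**Figure D4:**
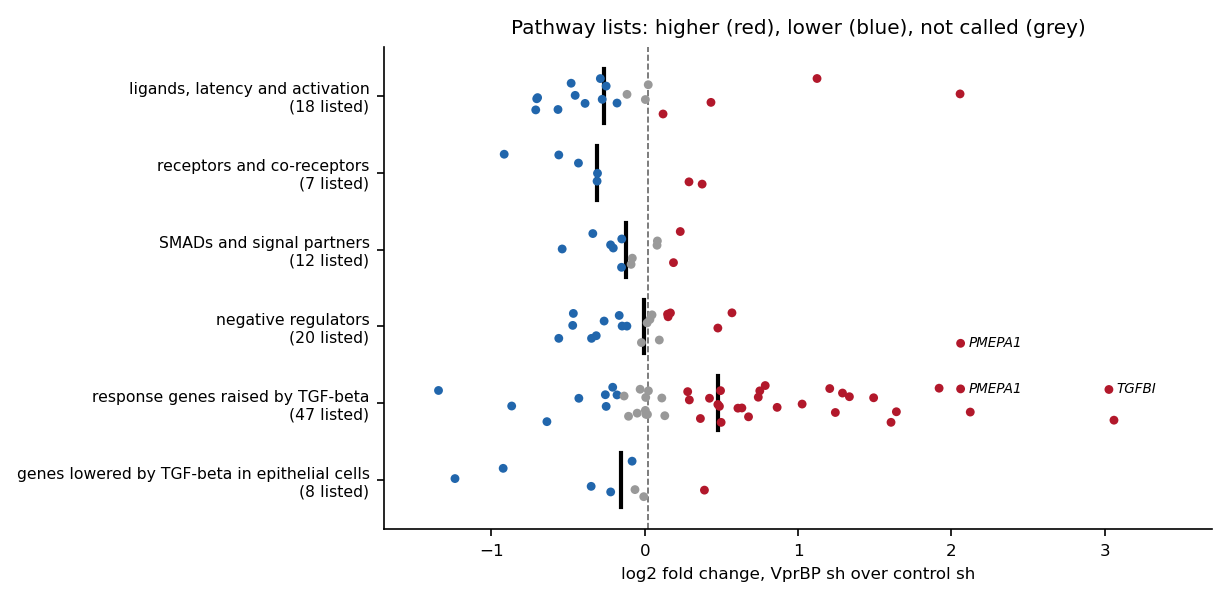
Log2 fold change of VprBP sh over control sh for the listed genes of 6 pathway lists, one point a gene (red higher, blue lower, grey not called; vertical jitter has no meaning). Names mark PMEPA1 and TGFBI. Black bars are list medians and the dashed line is the median of all listed genes, 0.02. The list of genes raised by TGF-beta has its median at 0.48, and the receptor list at -0.31.

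Of 9 genes that TGF-beta is known to lower in epithelial cells, 8 were listed, of which 1 rose, 5 fell and 2 passed in neither direction (median log2 change -0.15). Over all listed genes, 33.0% were higher and 27.8% lower. MYC, the growth-promoting transcription factor gene, had 249.3, 249.5 and 232 in VprBP sh libraries, against 580, 577 and 567 in control sh libraries. ID1, a helix-loop-helix inhibitor gene that also responds to BMP, had 133 ± 8.23 in VprBP sh cells and 252 ± 1.37 in control sh cells (SD, n = 3 each). CDC25A, a cell cycle phosphatase gene, was 1.17-fold lower, and CCNA2, the cyclin A2 gene, rose 1.31-fold. ID3 was 1.31-fold lower and close to the threshold (limma adjusted p = 0.0483), and it reached the listing minimum in control sh libraries alone. Of the 7 that reached it in both groups, 1 rose and 4 fell, where 32.6% and 28.0% of all such genes were higher and lower. This list too was chosen with earlier results of these data known, so its direction is a description. The count of lower genes was 3 without VprBP sh replicate 1, control sh replicate 1 or control sh replicate 3, and 3 with a replicate block, against 5 with all libraries.

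For each gene, profiles over the 6 libraries, centred on the control mean on the log2 scale, were compared with those of 11601 other genes with a mean of at least 5. No gene came within a root-mean-square distance of 0.1 of TGFBI, and the nearest were the interferon-induced genes IFIT1 at 0.114 and OAS2 at 0.137. The nearest to PMEPA1 were THBS1 at 0.0574 and OAS1 at 0.0703, with 7 genes within 0.1. TGFB2 was nearest to SRGN at 0.0291 and PARP14 at 0.0320, with 42 genes within 0.1. TGFB1 was nearest to SKI at 0.0160 and IRF2BPL at 0.0165, with 446 within 0.1. For genes of small change the measure singles out few: SKIL was nearest to GAPDH and DCTN3, TGFBR1 to RNF34 and ARMCX6, TGFBR2 to SRSF2 and CCT3, and SMAD3 to TNS3 and CMTM4, with 704, 924, 1879 and 1869 genes within 0.1 in that order. Because profiles were centred on the control mean, the distance depends strongly on the log2 fold change. That change was 3.03 for TGFBI, IFIT1 and OAS2 alike, and shared regulation was not tested. All these profiles share the same 6 libraries and scaling, and the distances are a description.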

How the data were processed

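RNA of 6 libraries was sequenced after preparation with a SMARTer kit, per the labels' protocols. Partek and hg38 are named per the submitters' processing notes, and no source used here gives the aligner, quantifier or scaling. The values deposited by the authors are a scaled signal, not raw counts as planned for: the 75th percentile was 78.99 to 79.02 in all 6 libraries, and 50.3% to 63.4% of a library's values were whole multiples of 1 step, within 0.02 reads. A count model was therefore not used. Estimated reads are values divided by that step and cover listed genes only.

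Genes were tested with limma 3.58.1 (R 4.3.3, trend) on log2(value + 0.5), checked on simulated data, with p-values adjusted over 12227 genes. Folds are ratios of group means. Reverse folds ("lower") are control over VprBP sh. Members, lists and tests were chosen with earlier results of these data known. Named genes are the members, DCAF1, up to 4 called genes per list and direction with a mean of at least 1, and the 2 nearest profiles per member. Alternatives were other scalings, pseudocounts, a mean filter, voom, a replicate block, each library left out, a 1.5-fold test and a single prior variance. The restriction to genes reaching 150 estimated reads in both groups was chosen after seeing the data. Planned ratios with SMAD7 could not be computed. Some genes that the naming rule covers are not reported here.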

Additional observations from a re-analysis of the deposited data

How the results depend on the processing

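All 8 genes kept their direction under the 15 alternatives, with log2 fold changes of 2.89 to 3.15 for TGFBI, 2.03 to 2.09 for PMEPA1, 1.098 to 1.13 for TGFB2, 0.45 to 0.49 for SKIL, 0.33 to 0.41 for TGFBR1, 0.26 to 0.30 for TGFBR2, -0.23 to -0.19 for SMAD3 and -0.51 to -0.38 for TGFB1. Their calls were lost only in the test against a fold of 1.5, by construction for smaller changes. There SKIL (0.48), TGFBR1 (0.37), TGFBR2 (0.29), SMAD3 (-0.21) and TGFB1 (-0.45) were not called (limma adjusted p = 1), and 3 of the 8 genes were, 3 higher and 0 lower. In the same test 651 genes were called over the whole table, 296 higher and 355 lower. Counts of higher and lower genes were then 2 and 1 for ligands, 0 and 1 for receptors, 0 and 0 for SMADs and partners, 1 and 0 for negative regulators, 15 and 1 for genes raised and 0 and 2 for genes lowered by TGF-beta.

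With 1 library left out, the SMAD list had 1 to 2 higher genes and the list of genes lowered by TGF-beta 3 to 5 lower genes. With a replicate block the second of these was 3, the other lists and the 8 genes kept their counts within 1.5 times, and 7042 genes were called. Among alternative values of the other named genes, 436 kept their call, 40 lost it and none changed direction. Same-numbered libraries did not deviate together (correlations 0.026, -0.178 and -0.168 across genes). Correlations of differently numbered ones ran from -0.102 to 0.217. Deviations within a group of 3 are tied to one another, so this check cannot tell whether the numbers pair the samples. Median-ratio and library-size scaling shifted the median of all genes by -0.02 on the log2 scale. Depth limits TGFBI and MMP9 in control sh cells, and genes under 150 estimated reads in every library were not analysed here. Intervals and estimated reads speak to counting error and the spread of these libraries only.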
